A study of Mus musculus with 9 samples.

Results

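The sodium and pacemaker channel genes described here are 7 genes of the cardiac action potential, taken by symbol from a table of 33844 regions around transcription start sites (TSS): Scn10a, Scn4b, Hcn2, Hcn4, Cacna1g, Cacna1h and Cacna1d. Each had 1 row in the table, and all 7 were among the 33747 regions that passed the filter on low counts. The assay was ATAC-seq, whose transposase cuts accessible DNA and tags it for sequencing, applied to heart muscle cell nuclei of CD1 (ICR) mice at postnatal day 1 (P1), day 14 (P14) and day 56 (P56), with 3 libraries per stage labelled as biological replicates. Each library pooled several hearts (12 for a P1 library, 6 to 7 for a library of either later stage), and nuclei were sorted on Pcm1, a protein of the cardiomyocyte nuclear envelope region. The isolation protocols describe cardiac ventricles at the neonatal stage and removal of the atria at the adult stage, so the sinoatrial node, where pacemaker channels are most abundant, was not the tissue aimed at. The protocols mention surgery but do not tie it to the hearts used here, and the labels give no sex or batch.

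The cardiac sodium current carries the fast upstroke of the ventricular action potential. A sodium channel is a pore-forming alpha subunit, such as that encoded by Scn10a, with single-span beta subunits, such as that encoded by Scn4b, that alter its gating and its surface level. HCN channels (Hcn2, Hcn4) open on hyperpolarisation and carry the pacemaker current. Low voltage activated T-type calcium channels (Cacna1g, Cacna1h) and the L-type channel subunit of Cacna1d open during diastolic depolarisation. T-type and pacemaker currents are known from fetal and newborn ventricular myocytes and are largely lost as these cells mature, while the sodium current grows; the comparison of stages therefore sets genes of the adult sodium current beside channels of the immature cell. Accessibility at a start site is not transcription, and no RNA was analysed here.

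The start sites of 5 of the 7 genes were matched in RefSeq (GRCm38.p6), which gave 6 windows of 300 bases, from 250 before to 50 after the start; Cacna1g and Cacna1h had no entry. A set of 4 is shown, 5′ to 3′ on the gene's strand, because the results below turn on these genes or on a peak beside the window. Capitals mark matches to the searched motifs.
Scn10a, chr9:119718983-119719282, minus strand: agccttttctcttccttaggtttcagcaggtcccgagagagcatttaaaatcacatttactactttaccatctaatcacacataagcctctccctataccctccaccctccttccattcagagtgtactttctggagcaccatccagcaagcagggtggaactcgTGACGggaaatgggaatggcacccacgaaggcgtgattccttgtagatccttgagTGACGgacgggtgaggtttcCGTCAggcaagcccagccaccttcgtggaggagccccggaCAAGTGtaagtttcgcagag
Scn4b, chr9:45138374-45138673, plus strand: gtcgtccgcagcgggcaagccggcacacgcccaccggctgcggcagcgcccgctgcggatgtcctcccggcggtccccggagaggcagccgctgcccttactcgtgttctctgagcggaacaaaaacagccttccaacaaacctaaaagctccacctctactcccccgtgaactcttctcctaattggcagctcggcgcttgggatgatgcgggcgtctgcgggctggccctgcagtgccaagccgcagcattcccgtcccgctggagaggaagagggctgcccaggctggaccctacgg
Hcn4, chr9:58822699-58822998, plus strand: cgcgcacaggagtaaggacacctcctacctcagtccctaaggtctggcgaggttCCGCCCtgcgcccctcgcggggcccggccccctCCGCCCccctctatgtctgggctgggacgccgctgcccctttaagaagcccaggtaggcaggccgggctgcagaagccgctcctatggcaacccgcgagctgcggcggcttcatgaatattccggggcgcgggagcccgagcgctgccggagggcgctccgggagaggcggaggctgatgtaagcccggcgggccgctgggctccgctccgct
Cacna1d, second start, chr14:30353437-30353736, minus strand: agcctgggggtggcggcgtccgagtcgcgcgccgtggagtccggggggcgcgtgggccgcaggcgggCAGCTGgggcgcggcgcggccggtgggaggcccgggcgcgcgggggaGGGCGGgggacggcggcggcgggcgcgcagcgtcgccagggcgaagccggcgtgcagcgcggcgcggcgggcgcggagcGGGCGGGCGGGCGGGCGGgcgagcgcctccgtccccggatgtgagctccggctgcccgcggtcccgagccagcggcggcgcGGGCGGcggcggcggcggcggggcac

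Base composition set these windows apart from each other. The Scn10a window was 51.7% G and C, close to the median of 52.7% over 32851 RefSeq windows, and held 11 CpG pairs against a median of 7. The Scn4b window (66.3% G and C, 26 CpG) and the Hcn4 window (71.7%, 31 CpG) were CpG-rich, and so was the Hcn2 window (72.3%, 26 CpG). The second Cacna1d window, at a start inside the gene, was 87.3% G and C with 63 CpG, whereas the window at the first Cacna1d start was 40.3% G and C with 4 CpG. A set of 8 motifs was searched on both strands. In the Scn10a window the letters TGACG, the core of the cyclic AMP response element, or their complement, were found 3 times, with first bases at -85, -30 and -10 from the start, and 20.8% of all windows held at least 1 copy. The Scn10a window also held 1 E-box (CANNTG, in 72.3% of windows) at 31 bases after the start. GC boxes (GGGCGG, in 35.7% of windows) numbered 2 in the Hcn4 window, 3 in that of Hcn2 and 6 in the second Cacna1d window, where 4 of them overlapped in 1 run of repeats; that window also held 1 E-box. The Hcn2 window held 1 E-box, and the first Cacna1d window held 1 GATA core (AGATAA or TGATAA, in 18.6% of windows) and 3 TATAAA matches (13.6%), of which 2 overlapped. No member window held the T-box letters GGTGTG (19.0%), the REST letters CAGCACC (7.14%) or the MEF2 consensus (3.19%), and the Scn4b window held none of the 8 motifs. These matches describe the letters of the windows only.

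Across the series, TSS totals per library ran from 1414979 to 2167369 counts at P1, from 481217 to 893032 at P14 and from 874639 to 1468352 at P56, so P14 values are the least precise. The most accessible 10% of regions held 32.6 to 33.4% of the P1 counts, 34.6 to 36.0% of the P14 counts and 36.0 to 38.6% of the P56 counts, lowest in P1 replicate 1 and highest in P56 replicate 2, and values without these 2 libraries are given beside the results they move. Of 11 cardiomyocyte markers, 5 rose from P1 to P56 and none fell, but 0 rose with those 2 libraries left out (edgeR; this count was added after the data were seen). Their summed level was 529 to 1168 CPM (counts relative to the scaled library total) in the P1 libraries, 831 to 1036 in P14 and 983 to 2486 in P56. None of 14 neuronal markers (583 to 681 CPM, 726 to 769 and 621 to 772 at the 3 stages in order of age) and none of 10 conduction cell markers (492 to 501, 498 to 592 and 479 to 553 CPM) passed the test in that comparison. Of 9 smooth muscle and pericyte markers 1 rose, and 0 without those 2 libraries (281 to 291, 320 to 365 and 356 to 423 CPM), and none of the glial, fibroblast, endothelial or leukocyte lists had a member that passed. No marker was at 0, but the deposited table holds only regions with a mean of at least 10 counts, so a level above 0 does not show that a cell type was present. In bulk nuclei, fewer cells with an open site and less opening per cell cannot be told apart.

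Tested with edgeR's quasi-likelihood test, adjusted over all 33747 regions, none of the 7 genes passed the threshold of 0.05 in any of the 3 comparisons. From P1 to P56, 2.53% of all regions passed; from P1 to P14 0.0119% did, and from P14 to P56 0.00296%. At an unadjusted p below 0.05 the counts of members were 4 from P1 to P56 (21.6% of all regions), 1 from P1 to P14 (8.59%) and 0 from P14 to P56 (10.1%). DESeq2's Wald test called none of the 5 members to which it gave an adjusted p from P1 to P56 (its filter on low counts left Scn10a and Scn4b without one), and 0 of 7 in each of the other comparisons. The log2 change from P1 to P56 was above 0 for 5 of the 7, with a median of 0.38 against -0.0076 over all regions; from P1 to P14 it was above 0 for 6 (median 0.34 against 0.00017), and from P14 to P56 for 4 (median 0.025 against -0.016). In 2 members, Scn10a and Scn4b, the 3 libraries of P56 did not overlap those of P1, which was so for 24.1% of all regions. P14 and P1 did not overlap in 3 members, Scn4b, Cacna1g and Cacna1h (16.9% of all regions), and P56 and P14 in 1, Cacna1d (14.0%).

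**Figure D1:**
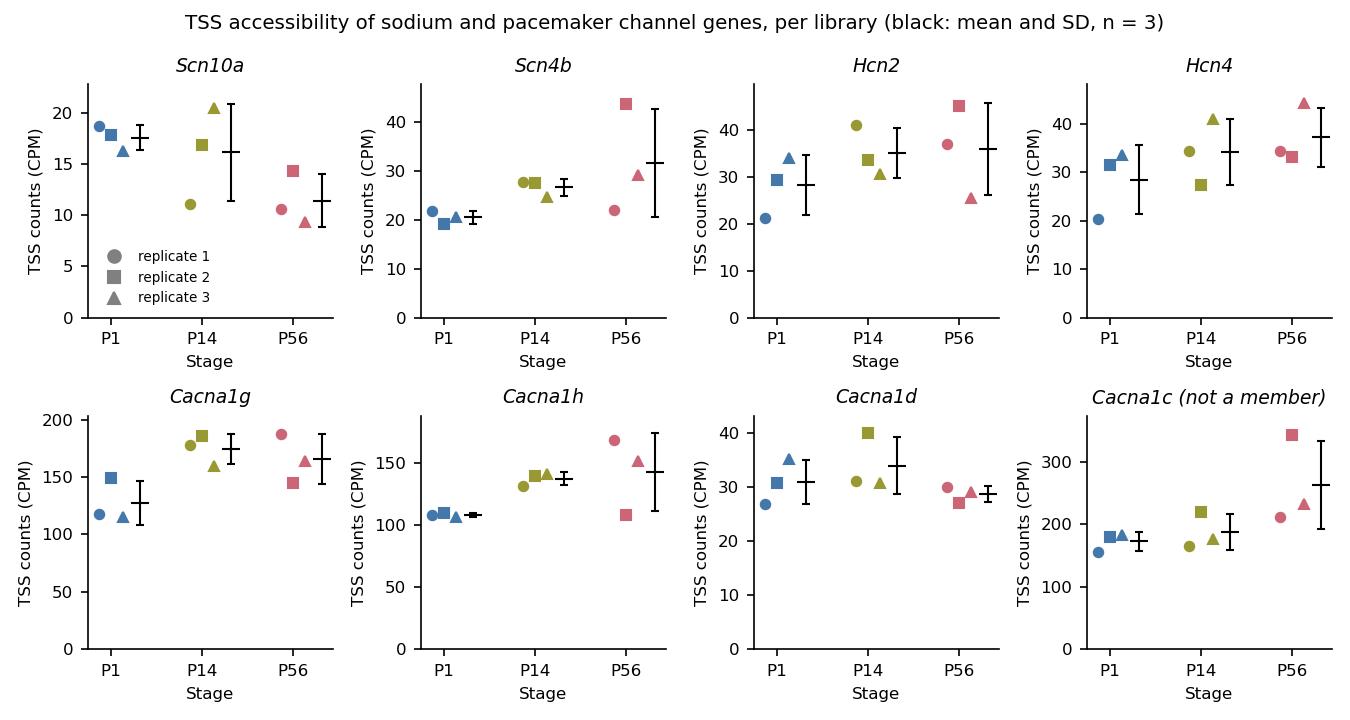
Accessibility at the TSS in CPM (linear axis from 0) in each of the 9 libraries for the 7 genes and for Cacna1c, which is not one of them; symbols give the replicate, and black bars the mean and SD of 3 libraries. The P56 libraries of Scn10a lie below all P1 libraries and those of Scn4b above them, while the stages overlap for both Hcn genes.

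The 2 sodium channel subunit genes gave point estimates of opposite sign from P1 to P56, neither past the threshold. Scn10a (ENSMUSG00000034533, chr9:119608456-119719322) encodes an alpha subunit best known from sensory neurons. Its level was 18.7, 17.8 and 16.3 CPM in P1 replicates 1, 2 and 3, then 11.1, 16.9 and 20.5 CPM at P14, and 10.6, 14.3 and 9.32 CPM at P56. Every P56 library was below every P1 library, and P14 spread across both. The log2 change from P1 to P56 was -0.59 (SE 0.287, 95% interval -1.17 to -0.01), with an edgeR p of 0.0478 and an adjusted p of 0.226. The change was -0.21 from P1 to P14 (adjusted p = 0.886) and -0.38 from P14 to P56 (adjusted p = 0.767). These values rest on 8 to 43 counts per library, for which counting error alone is 17.3% of the level in a P1 library, 32.7% at P14 and 27.7% at P56. The SD over the 3 libraries was 6.94% of the mean at P1 and 22.7% at P56, so the spread between replicates was no larger than that of counting.

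Scn4b (ENSMUSG00000046480, chr9:45138624-45154155), a beta subunit gene 8.55 kb from the related Scn2b, had point estimates above its P1 level at both later stages. Its level was 21.7, 19.2 and 20.5 CPM at P1, 27.8, 27.4 and 24.6 CPM at P14, and 22.0, 43.6 and 29.1 CPM at P56. All P14 and all P56 libraries were above all P1 libraries, though P56 replicate 1 exceeded the highest P1 library by less than 1 CPM. The log2 change from P1 to P56 was 0.64 (SE 0.259, 95% interval 0.11 to 1.16; edgeR adjusted p = 0.151), or 1.56-fold. It was 0.38 from P1 to P14 (adjusted p = 0.744) and 0.26 from P14 to P56 (adjusted p = 0.805). P56 replicate 2, which had the highest Scn4b level, also had the highest share of counts in the most accessible regions (38.6%). Over the 9 libraries the log2 level of Scn4b correlated with that share at r = 0.87, against -0.41 to 0.57 for the other members. The share was also higher at the later stages, so it and stage cannot be told apart. Without P56 replicate 2 the Scn4b change from P1 to P56 was 0.29, and that from P14 to P56 was -0.08. From P1 to P56 the change was 0.32 with P1 replicate 1 left out as well, and 0.52 with loess offsets, which remove each library's trend with abundance.

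The HCN genes overlapped between stages. Hcn2 (ENSMUSG00000020331, chr10:79716634-79736108) encodes an HCN subunit of ventricular myocytes and of much of the brain. Its level was 21.3, 29.5 and 34.1 CPM at P1, 41.1, 33.7 and 30.7 CPM at P14 and 37.0, 45.1 and 25.6 CPM at P56. The lowest library of each later stage was below the highest of P1, and the log2 change from P1 to P56 was 0.38 (SE 0.259, 95% interval -0.15 to 0.91; edgeR adjusted p = 0.401). With P1 replicate 1 and P56 replicate 2 left out it was -0.02. Hcn4 (ENSMUSG00000032338, chr9:58822949-58863175) encodes the main HCN subunit of the sinoatrial node. Its level was 20.4, 31.5 and 33.6 CPM at P1, 34.4, 27.4 and 41.0 CPM at P14 and 34.4, 33.1 and 44.3 CPM at P56. P1 replicate 1 was lowest for both HCN genes. The Hcn4 change from P1 to P56 was 0.38 (SE 0.256, 95% interval -0.14 to 0.90; edgeR adjusted p = 0.386), and the intervals ran from 0.901 to 1.87-fold for Hcn2 and from 0.909 to 1.87-fold for Hcn4. From P1 to P14 the changes were 0.35 for Hcn2 (adjusted p = 0.753) and 0.28 for Hcn4 (adjusted p = 0.813), and from P14 to P56 0.03 (adjusted p = 0.987) and 0.10 (adjusted p = 0.939). The span of Rec114, a meiotic gene, lies 243 bp from the upstream side of the Hcn4 span. Since the counts carry no strand, signal of the 2 genes at this place could not be separated.

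The T-type genes rested on more counts, 78 to 270 per library for Cacna1g and 66 to 248 for Cacna1h, and their intervals were narrower. Cacna1g (ENSMUSG00000020866, chr11:94408391-94474400) encodes a T-type pore subunit of the pacemaker and conduction tissue. Its level was 117, 149 and 116 CPM at P1, 178, 186 and 160 CPM at P14 and 188, 144 and 164 CPM at P56. All P14 libraries were above all P1 libraries, whereas P56 replicate 2 lay below the highest P1 library. The log2 change was 0.46 from P1 to P14 (SE 0.156; edgeR adjusted p = 0.492), 0.38 from P1 to P56 (SE 0.150, 95% interval 0.07 to 0.69; adjusted p = 0.141) and -0.08 from P14 to P56 (adjusted p = 0.908). Cacna1h (ENSMUSG00000024112, chr17:25374285-25436334), a T-type pore subunit of the embryonic heart, stood at 108, 110 and 107 CPM at P1, 131, 139 and 141 CPM at P14 and 168, 108 and 151 CPM at P56. The P1 libraries were within 1.43% (SD over mean) of each other, closer than the counting error of 7.01%; all P14 libraries were above them, and P56 replicate 2 fell among them. The Cacna1h change was 0.34 from P1 to P14 (SE 0.168; adjusted p = 0.581), 0.39 from P1 to P56 (SE 0.159, 95% interval 0.07 to 0.72; adjusted p = 0.149) and 0.05 from P14 to P56 (adjusted p = 0.947). With P1 replicate 1 and P56 replicate 2 left out together, the Cacna1h change from P1 to P56 was 0.56 with an edgeR adjusted p of 0.0245. That was the only setting of 18 in which any of the 7 genes passed the threshold, and 2.06% of all regions passed in it. The adjusted p of Cacna1h over the 18 settings was 0.0245 to 0.792. The P1 to P56 intervals of both T-type genes lay above 0, but with loess offsets the changes were 0.085 for Cacna1g (adjusted p = 0.844) and 0.12 for Cacna1h (adjusted p = 0.792).

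Cacna1d (ENSMUSG00000015968, chr14:30039941-30491156) encodes an L-type pore subunit that opens at more negative voltages than the ventricular one of Cacna1c and contributes to sinoatrial pacemaking. Its level was 26.9, 30.8 and 35.2 CPM at P1, 31.1, 40.1 and 30.7 CPM at P14 and 30.0, 27.1 and 29.1 CPM at P56. The P56 libraries were below all P14 libraries and lay inside the P1 range. The log2 change was -0.11 from P1 to P56 (SE 0.245, 95% interval -0.61 to 0.39; edgeR adjusted p = 0.825), 0.12 from P1 to P14 (adjusted p = 0.931) and -0.23 from P14 to P56 (adjusted p = 0.821). The gene has 2 start sites in RefSeq and 1 row in the table, and which of them the row covers is not stated.

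**Figure D2:**
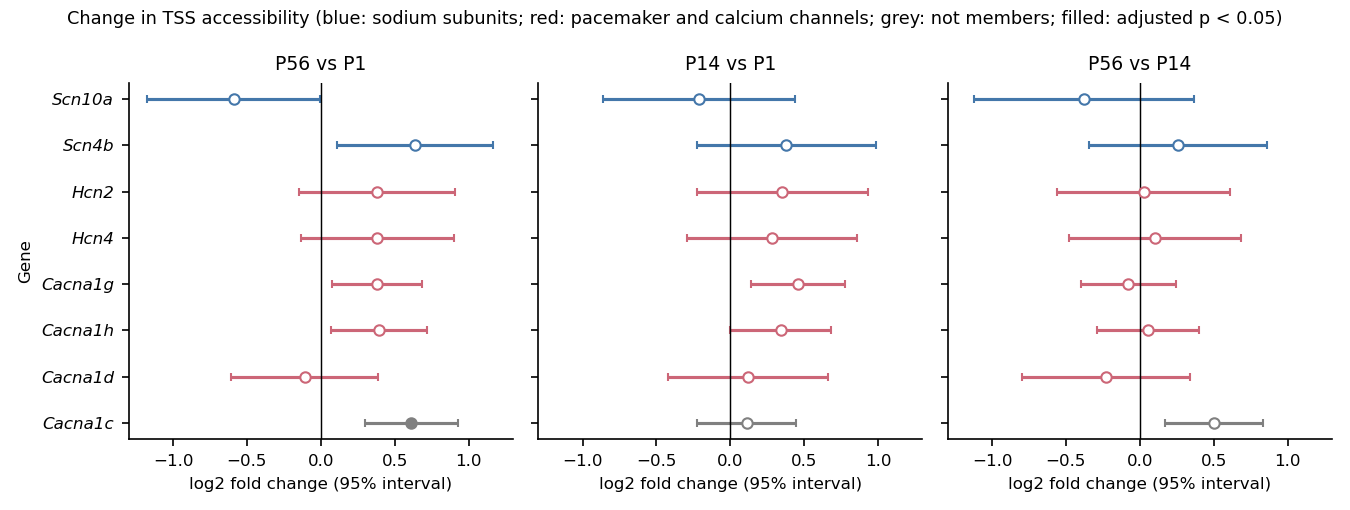
Log2 fold change at the TSS (points) with its 95% interval (bars) in the 3 comparisons, for the 7 genes and for Cacna1c; filled points passed an adjusted p of 0.05. Only Cacna1c, from P1 to P56, is filled; the intervals of Scn10a and Scn4b lie on opposite sides of 0 in that comparison.

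Setting sodium subunits beside pacemaker and calcium channels within each library removes differences in depth. The ratio of Scn4b to Scn10a counts was 1.16, 1.08 and 1.26 in the P1 libraries, 2.50, 1.63 and 1.20 at P14, and 2.08, 3.05 and 3.13 at P56. Every P56 library had a higher ratio than every P1 library, and P14 replicate 3 lay inside the P1 range. That separation follows from the levels above, where all P56 libraries lay above P1 for Scn4b and below P1 for Scn10a. It is therefore not a further result, and it rests on 12, 19 and 8 Scn10a counts in P56 replicates 1, 2 and 3. Because the regions' widths are not stated, the ratio is read between libraries and not as a difference in level between the genes. The mean log2 CPM of the 2 sodium subunits minus that of the other 5 genes was -1.05, -1.48 and -1.51 at P1, -1.76, -1.48 and -1.40 at P14, and -1.99, -1.15 and -1.77 at P56. These differences overlapped between all stages. The mean joins 2 sodium subunits whose point estimates had opposite signs, so it does not describe either of them. The members were chosen with results of these data known, and no p is given for either quantity.

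**Figure D3:**
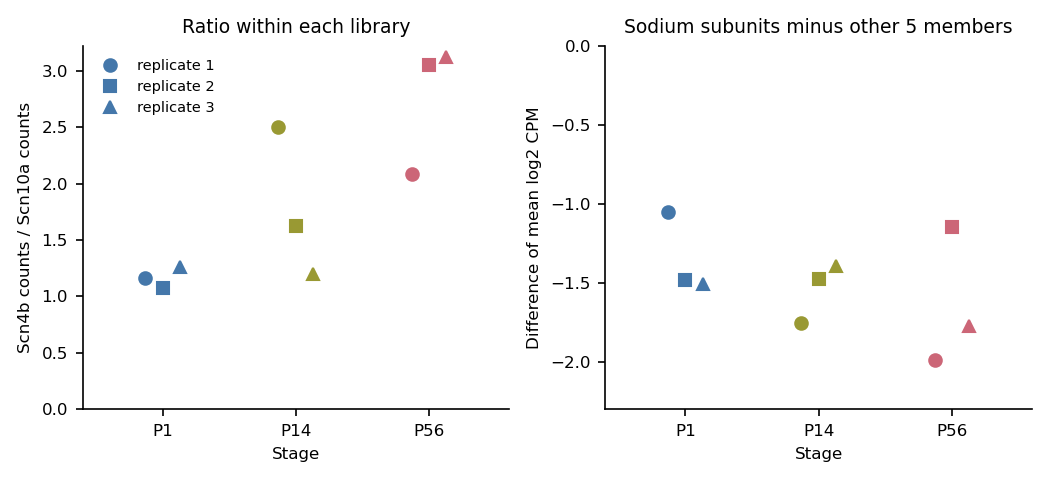
Left, the ratio of Scn4b to Scn10a counts (linear axis from 0) in each library; right, the mean log2 CPM of Scn10a and Scn4b minus that of the other 5 genes. The ratio lies between 1.08 and 1.26 at P1 and between 2.08 and 3.13 at P56, which follows from the levels of the 2 genes. The difference on the right overlaps between the stages.

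The rest of the pathway was read from lists of related genes, adjusted over all regions as above. Of their 62 measured genes some are not reported here, nor is the number that rose from P1 to P56. None of the 62 fell from P1 to P56 with edgeR. None passed in either direction from P1 to P14 (6 at an unadjusted p below 0.05, against 8.59% of all regions) or from P14 to P56 (12, against 10.1%). From P1 to P56, 12 of the 62 had an unadjusted p below 0.05, against 21.6% of all regions. Scn1a, a sodium channel alpha subunit of brain, had a log2 change of -0.72 from P1 to P56 (adjusted p = 0.139), with all P56 libraries below all P1 libraries. None of the 3 other beta subunits passed in that comparison (median 0.12); the change was 0.51 for Scn2b (adjusted p = 0.301), with P56 above P1 in every library, and 0.12 for Scn3b (adjusted p = 0.795). Of 10 sodium channel partners none passed (median 0.18). Among them Slmap, a sarcolemmal protein, had a change of 0.52 (adjusted p = 0.122), with the P56 libraries above all P1 libraries; without P56 replicate 2 it was 0.086. With P1 replicate 1 and P56 replicate 2 left out together, Scn1a was at -0.44 and Slmap at 0.035.

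Among the relatives of the pacemaker genes, Cacna1i, the remaining T-type pore subunit, had a log2 change of 0.30 from P1 to P56 (edgeR adjusted p = 0.411). Its change was 0.71 from P1 to P14 (adjusted p = 0.465), with all P14 libraries above all P1 libraries, and -0.41 from P14 to P56 (adjusted p = 0.538). From P1 to P56, to which the values below also belong, none of 5 genes listed as HCN partners passed (median 0.17). The list, kept as drawn up, includes Mink1, a kinase that is not an established HCN partner. The log2 change was 0.33 for Mink1 (adjusted p = 0.173) and 0.55 for Vapa, a protein of the endoplasmic reticulum membrane (adjusted p = 0.240). With those 2 libraries left out Mink1 was at 0.46 and passed (adjusted p = 0.0481; 0.0481 to 0.986 over its settings) and Vapa was at -0.13. Of 6 other high voltage activated calcium channel pore subunits, 1 rose and 0 fell (median 0.26). The riser was Cacna1c, the main L-type subunit of the ventricle, at 155, 180 and 182 CPM at P1, 165, 219 and 176 CPM at P14 and 211, 342 and 232 CPM at P56. All P56 libraries of Cacna1c were above all P1 libraries, and the log2 change was 0.61 (SE 0.155; adjusted p = 0.0310), or 0.28 and no longer past the threshold without P1 replicate 1 and P56 replicate 2. The change of Cacna1a, a neuronal subunit, was 0.33 (adjusted p = 0.190). None of 13 calcium channel auxiliary subunits passed (median 0.06; 0.41 for Cacnb3, adjusted p = 0.234, and 0.31 for Cacna2d2, adjusted p = 0.237). Of 14 transcription factors of the conduction system measured, none passed (median 0.24; 0.81 for Irx5, adjusted p = 0.120, and 0.47 for Tbx5, adjusted p = 0.212). Irx5 was at 0.20 and Tbx5 at 0.15 with P1 replicate 1 and P56 replicate 2 left out. With loess offsets the change was 0.0099 for Mink1, 0.085 for Cacna1i, 0.033 for Cacna1a, 0.19 for Cacnb3, 0.016 for Cacna2d2 and 0.28 for Cacna1c.

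The genes whose TSS pattern was most like each member were found by the Pearson correlation of log2 CPM over the 9 libraries, among 14145 regions with a mean of at least 20 counts. For Scn10a they were Smc4 (r = 0.97), Serpinb5 (0.95) and Focad (0.93), and for Scn4b they included Ndufs5 (0.97) and Pus7 (0.96). For Hcn2 they were Chmp2a (0.95), Pycr1 (0.93) and Immp2l (0.93), and for Hcn4 Zfp362 (0.92), Emp2 (0.90) and Itch (0.89). For Cacna1g they were Apoa4, Vipr1 and Fev (each 0.97), for Cacna1h H2-Q1 (0.97), Bhlha9 (0.96) and Igsf21 (0.95), and for Cacna1d Gng4 (0.92), Fli1 (0.92) and Vgll3 (0.89). No member was among the 3 genes most like another; the 2 T-type genes were the most alike within the set, at r = 0.81. The best of 14145 correlations over 9 libraries that share stage and depth is high for any gene, so these names are a description only.

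The second deposited table held counts for 25915 peaks, of which 25885 were tested. Peaks lay in or within 5 kb of 5 of the 7 genes, 12 in all: 7 at Cacna1d, 2 at Hcn4 and 1 each at Scn10a, Cacna1g and Cacna1h, with 0 at Scn4b and Hcn2. Of the 12, 10 lay inside the gene's span and 1 overlapped a promoter window. None of the 12 was called in any comparison (edgeR), in which 0.444% of all peaks were called from P1 to P56, 0.00773% from P1 to P14 and 0.00773% from P14 to P56. From P1 to P56, 3 of the 12 had an unadjusted p below 0.05 (16.0% of all peaks), 6 were above 0, and the median change was 0.02. Peaks carry no gene label in the table, and those in overlapping genes were counted at the member by position only.

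The Scn10a peak (PK64056, chr9:119690337-119691516) lay inside the gene, 28.1 kb downstream of the start. Its level was 21.4, 11.1 and 16.4 CPM at P1, 21.0, 24.9 and 18.9 CPM at P14 and 19.7, 37.7 and 18.4 CPM at P56. The stages overlapped, and the log2 change from P1 to P56 was 0.66 (SE 0.363; edgeR adjusted p = 0.358), above 0 where the change at the Scn10a TSS was below 0; without 1 library in turn it was 0.20 to 0.91. At Hcn4, the peak inside the gene (PK62522, chr9:58846329-58848600) had 60.9, 57.7 and 45.0 CPM at P1, 68.4, 62.3 and 47.3 CPM at P14 and 68.3, 91.4 and 60.1 CPM at P56, a change of 0.44 (adjusted p = 0.410). The higher peak at Hcn4 (PK62521, chr9:58815604-58818516) was centred at -5.89 kb from the start within Rec114, with a change of 0.08. The single peaks of the T-type genes lay inside them, with changes of -0.09 at Cacna1g (PK10603, chr11:94448131-94452626; adjusted p = 0.881) and -0.05 at Cacna1h (PK26884, chr17:25413824-25417066; adjusted p = 0.944). Both signs turned when 1 library was left out (-0.30 to 0.13 and -0.14 to 0.10).

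The 7 Cacna1d peaks gave point estimates of both signs from P1 to P56, and none passed the threshold. A pair of peaks deep inside the gene, with a gap of 4.08 kb between them, gave opposite point estimates. The first (PK18462, chr14:30217638-30218856) had 23.0, 25.5 and 13.9 CPM at P1, 15.8, 15.6 and 25.3 CPM at P14 and 25.0, 36.8 and 40.1 CPM at P56, a change of 0.71 from P1 to P56 (SE 0.340; edgeR adjusted p = 0.287). The second (PK18463, chr14:30222933-30224105), which also holds the start of the predicted gene Gm52107, had 35.4, 31.1 and 23.7 CPM at P1, 28.1, 15.6 and 34.7 CPM at P14 and 14.4, 20.7 and 16.7 CPM at P56, a change of -0.77 (SE 0.353; adjusted p = 0.269). P56 libraries of the second peak were all below those of P1, while those of the first overlapped P1. Another peak (PK18467, chr14:30478963-30480291), at 0.76 (adjusted p = 0.220), holds the start of Dcp1a, a decapping enzyme subunit gene that overlaps the Cacna1d span, so its signal cannot be given to Cacna1d. The peak that overlapped the promoter window of the second Cacna1d start shown above (PK18464, chr14:30353685-30354411) had a change of -0.47 (adjusted p = 0.569). The others were at -0.40 (PK18466, chr14:30464781-30466376), 0.44 (PK18461, chr14:30177696-30178900) and -0.11 (PK18460, chr14:30033555-30037022, the highest by mean level, which overlaps Chdh).

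**Figure D4:**
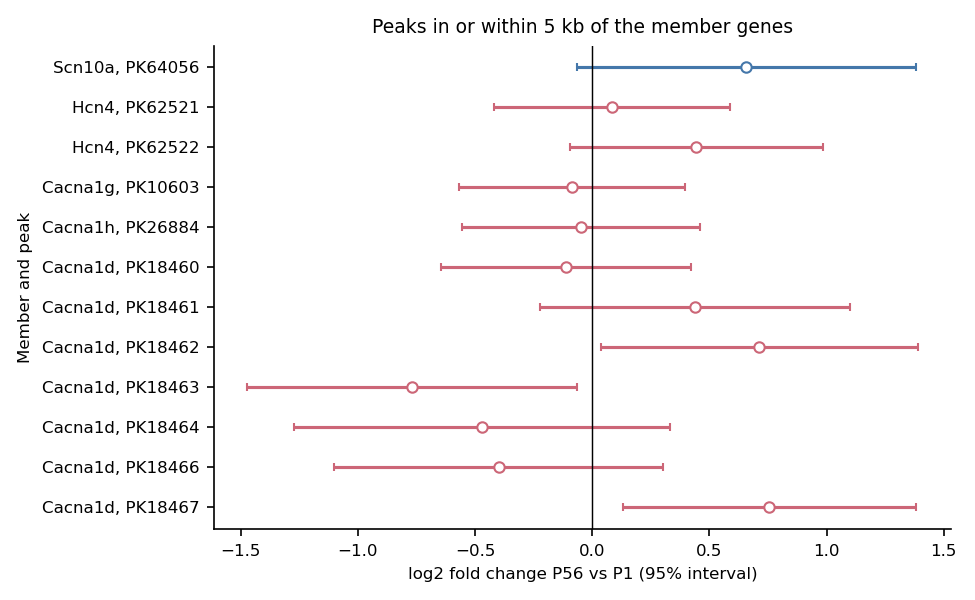
Log2 fold change from P1 to P56 (points) with its 95% interval (bars) at the 12 peaks in or within 5 kb of the genes; open points did not pass an adjusted p of 0.05. The peaks of Cacna1d lie on both sides of 0, between -0.77 and 0.76, and no peak is filled.

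Leaving out each of the 9 libraries in turn gave changes from P1 to P56 of -0.81 to -0.49 for Scn10a, 0.29 to 0.85 for Scn4b, 0.18 to 0.55 for Hcn2, 0.16 to 0.53 for Hcn4, 0.28 to 0.50 for Cacna1g, 0.25 to 0.57 for Cacna1h and -0.22 to -0.0032 for Cacna1d. The sign of each of these 7 changes was kept in all 9 of these fits. No member was called in any of them. With loess offsets the changes were -0.44 for Scn10a, 0.20 for Hcn2, 0.21 for Hcn4 and -0.28 for Cacna1d.

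**Figure D5:**
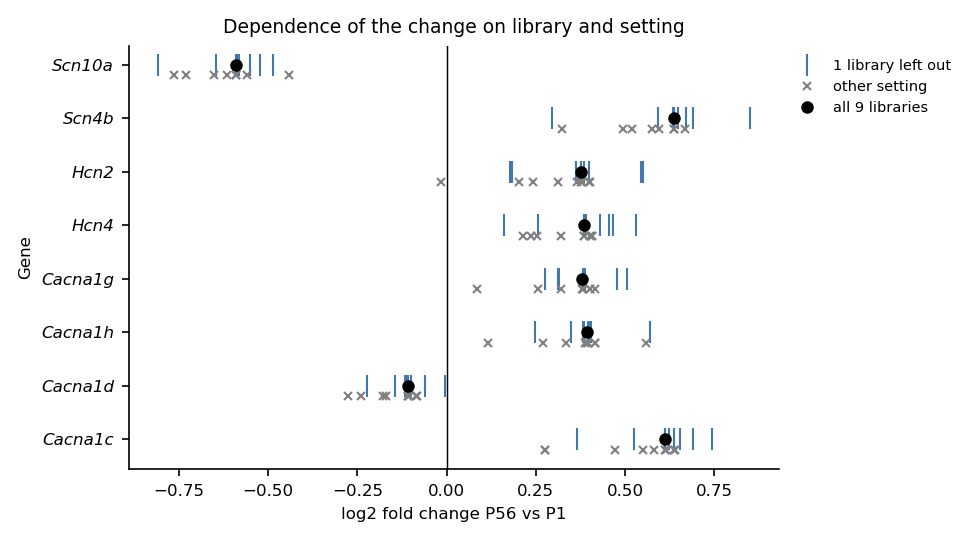
Log2 fold change from P1 to P56 at the TSS with all 9 libraries (black), with 1 library left out (blue bars) and under the other settings (grey crosses), for the 7 genes and Cacna1c. Scn10a stays below 0 and Scn4b above it in every setting; Hcn2 reaches -0.02 in 1.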

How the data were processed

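The authors deposited unnormalised read counts for 9 libraries, per TSS region and per peak; every region had a mean of at least 10 counts, and region width is not given in the sources used here. The build was GRCm38, and featureCounts 1.4.2, MACS 1.4.0, bedtools 2.26, BWA 0.7.10, SAMtools 1.3.1 and bcl2fastq 2.17.1.14 were used, per the submitters' processing notes.

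Each table was fitted whole with edgeR 4.0.16 (R 4.3.3): TMM scaling, the default expression filter (97 TSS regions left out), 1 coefficient per stage over 9 libraries, the two-sided quasi-likelihood F test and Benjamini-Hochberg adjustment at 0.05. SE is the log2 change over the root of F. The fit was tested on simulated data with changes larger than those at the TSS of the members. That test does not show how well changes of their size are detected. Gene spans, promoter sequences and neighbours came from RefSeq (GRCm38.p6). Alternatives were other scalings, no filter, DESeq2 1.42.0, 2 stages alone, loess offsets, the replicate number and libraries left out.

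Members and lists were chosen with earlier results of these data known. Named were every member, in each list the genes called and otherwise the 2 with the smallest P56 against P1 p, the 3 regions most like each member, and the highest peak at each member; some genes are not reported here. Other peaks were named after their values were seen. In a chi-square test of their counts, every pair of libraries differed by more than sampling noise. P-values measure the spread between pooled samples.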

Additional observations from a re-analysis of the deposited data

How the results depend on the processing

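Of 376 changes of the 7 genes recomputed under 18 alternatives in 3 comparisons, 357 kept their direction and their side of the threshold, 18 reversed and 1 passed the threshold. DESeq2 gave no adjusted p for Scn10a and Scn4b from P1 to P56, nor for Scn1a, Scn2b and Irx5. With P1 replicate 1 and P56 replicate 2 left out together, 1 member was called from P1 to P56 (Cacna1h), against 2.06% of all regions. In that fit the changes from P1 to P56 were -0.016 for Hcn2 (up to 0.55 with 1 library left out) and -0.13 for Vapa (up to 0.93). The change was -0.0034 for Cacna1d from P1 to P14, and -0.091 for Scn4b, -0.18 for Hcn2 and 0.016 for Cacna1g from P14 to P56. With all 9 libraries, 1 of the 22 peaks within 50 kb was called from P1 to P56, against 0.444% of all peaks. With library size alone the changes at the TSS were -0.047 for Hcn2 and -0.0032 for Cacna1h from P14 to P56 and -0.011 for Scn3b from P1 to P56. With loess offsets they were -0.063, -0.046 and -0.080. Leaving out 1 library at a time reversed some small changes: Scn10a (-0.41 to 0.087) and Cacna1d (-0.0090 to 0.23) from P1 to P14; Scn4b (-0.085 to 0.46), Hcn2 (-0.18 to 0.20), Hcn4 (-0.027 to 0.22), Cacna1g (-0.19 to 0.015) and Cacna1h (-0.10 to 0.23) from P14 to P56; and, from P1 to P56, the peaks PK62521 (-0.028 to 0.17), PK10603 (-0.30 to 0.13), PK26884 (-0.14 to 0.10), PK18460 (-0.33 to 0.16) and PK18466 (-0.69 to 0.27). The cause was not tested. Cacna1c lost its call in 11 of 18 alternatives.

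Over all regions, 853 were called from P1 to P56, 68.1% of them higher at P56. The count was 197 with loess offsets (59.9% higher), 185 with the 2 stages alone (76.8% higher), 247 with DESeq2 (99.6% higher), which adjusted 10193 regions against 33747, and 147 to 1523 with 1 library left out, lowest without P56 replicate 2; 1097 regions were called with library size alone (29.1% higher; median of all regions -0.14) and 671 with peak table factors (49.5% higher). From P1 to P14, where 4 were called, it was 293 without both doubted libraries, 1 with DESeq2 or loess offsets, 7 with the 2 stages alone and 0 to 9 with 1 left out. From P14 to P56, where 1 was called, it was 21 without both, 0 with DESeq2 size factors, 11 with library size alone, 23 with the 2 stages alone and 0 to 101 with 1 left out.

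Whether replicate numbers pair the samples was not resolved. Deviations of same-numbered libraries correlated at -0.07 to 0.22 and those of others at -0.27 to 0.25. Of 18 combinations of a library and another stage, 12 correlated best with their own number, a hint from the data only. With the replicate block, 1982 regions were called from P1 to P56, 12 from P1 to P14 and 76 from P14 to P56, 0 members in each; Hcn2 from P14 to P56 was then -0.0014, and Irx5 (0.83) passed from P1 to P56. Scn10a rested on 8 to 43 counts per library, the fewest of the 7 genes; the part of depth in its result was not tested.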

Other observations

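With peaks taken up to 50 kb from the gene spans, 22 lay near the 7 genes and 1 was called from P1 to P56, against 0.444% of all peaks. The called peak, PK18468 (chr14:30540901-30542322), was chosen after its values were seen. It lay 49.7 kb outside the Cacna1d span and 6.81 kb from that of Tkt, which encodes the pentose phosphate enzyme transketolase. Its level was 37.0, 18.9 and 30.3 CPM at P1, 40.3, 43.6 and 25.3 CPM at P14 and 60.4, 70.7 and 65.1 CPM at P56. Every P56 library was above every library of the earlier stages. The log2 change was 1.17 from P1 to P56 (SE 0.297; edgeR adjusted p = 0.0455). With library size alone it was 1.09 and no longer passed, nor did it in 7 of the 9 fits that left out 1 library (0.94 to 1.39; adjusted p = 0.00576 to 0.249 over all alternatives), namely those without P1 replicate 2, P1 replicate 3, each P14 library, P56 replicate 2 and P56 replicate 3.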
